A study of Mus musculus with 10 samples.

Results

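The genes described here are 8 transcription factors that set intestinal identity and position along the gut: Gata4, Gata6, Pdx1, Onecut2, Hnf4a, Hnf4g, Cdx1 and Cdx2. They were taken by name from a fixed list, and all 8 were found among the 55414 gene identifiers counted in each library. RNA from jejunum, the middle stretch of the small intestine, was sequenced in 10 libraries from male C57BL/6J mice. All mice carried floxed alleles of RetSat (flox/flox), received tamoxifen for 5 days and were then kept for 14 weeks on a high-fat diet with 60 kcal% fat. In the 5 RetSat ko libraries the mice also carried villin-Cre-ERT2, a tamoxifen-inducible recombinase under the promoter of the epithelial gene villin, so deletion is limited to cells that use this promoter. The 5 control libraries came from mice without it, so loss of RetSat and the presence of active Cre cannot be told apart. Retinol saturase, the product of RetSat, converts retinol to dihydroretinol. Nothing in the labels says outright that each library is a separate animal, so every p-value refers to the spread among these libraries, part of which may be technical.

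The small intestine keeps regional character in the adult, and that character is written in transcription factors. PDX1 marks the duodenum and fades distally, while GATA4 runs through duodenum and jejunum and is lost in the ileum, where bile acid uptake takes over. CDX1 and CDX2 give epithelium its intestinal as opposed to gastric fate, and HNF4A with its paralogue HNF4G drives the enterocyte programme of brush border and lipid handling. GATA6 accompanies GATA4 and is also present in crypts, and ONECUT2 is a homeodomain factor of the proximal small intestine.

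Each library held between 102844680 and 128730695 counts. Retsat fell from 340.2 to 576 CPM in the controls (counts per 1000000 of the normalized library) to between 15.4 and 16.8 CPM in 4 RetSat ko libraries and 33.4 CPM in RetSat ko 5 (log2 fold change -4.49, edgeR adjusted p = 0.000101). Epithelial markers summed to between 6225 and 8450 CPM in all libraries, and 8 of 9 genes of stomach or colon had mean levels below 0.1 CPM. The ileal hormone gene Fgf15 had no count in any library. Pancreatic acinar genes (9 of 9 detected) summed to between 15.1 and 261 CPM in the controls and between 28.3 and 2503 CPM in RetSat ko, highest in RetSat ko 2. RetSat ko 1 stood apart from the other libraries: it had the lowest sample weight in limma-voom, 0.300, against 0.681 to 1.98 in the rest.

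Promoter sequences are shown for the 3 members that have an entry in the RefSeq promoter table (mouse build GRCm38.p6). Pdx1 and Cdx2 are shown because they are neighbours on chromosome 5 whose levels are compared library by library. Hnf4a is shown because it has separate upstream and downstream start sites, which gene-level counts add together. Each sequence is the 250 bases before the start site, 5′ to 3′ on the gene's strand, with motif matches in capitals.
Pdx1 (chr5:147269847-147270096, plus strand): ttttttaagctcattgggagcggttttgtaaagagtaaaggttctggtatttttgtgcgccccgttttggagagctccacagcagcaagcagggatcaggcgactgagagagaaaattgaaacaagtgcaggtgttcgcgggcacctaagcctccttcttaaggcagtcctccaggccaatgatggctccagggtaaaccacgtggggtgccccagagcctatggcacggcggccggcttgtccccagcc
Cdx2 (chr5:147307250-147307499, minus strand): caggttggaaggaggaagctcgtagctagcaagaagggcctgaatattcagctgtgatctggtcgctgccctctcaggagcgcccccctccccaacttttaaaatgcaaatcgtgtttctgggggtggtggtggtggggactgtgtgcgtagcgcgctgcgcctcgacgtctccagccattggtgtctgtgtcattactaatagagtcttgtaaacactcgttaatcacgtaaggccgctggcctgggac
Hnf4a, upstream start (chr2:163506607-163506856, plus strand): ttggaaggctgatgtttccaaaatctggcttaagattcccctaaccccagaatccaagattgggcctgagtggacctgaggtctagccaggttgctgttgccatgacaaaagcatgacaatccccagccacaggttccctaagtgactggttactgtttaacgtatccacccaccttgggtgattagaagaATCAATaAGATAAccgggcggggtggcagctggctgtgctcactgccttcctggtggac
Hnf4a, downstream start (chr2:163546905-163547154, plus strand): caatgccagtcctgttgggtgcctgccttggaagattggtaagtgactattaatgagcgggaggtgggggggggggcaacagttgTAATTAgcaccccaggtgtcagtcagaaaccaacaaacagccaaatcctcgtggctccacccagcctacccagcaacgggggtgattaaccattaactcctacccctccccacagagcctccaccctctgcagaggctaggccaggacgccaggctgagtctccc

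A core motif for each family of factors was searched on both strands of these promoters. The upstream Hnf4a promoter held the GATA core AGATAA 52 to 47 bases before the start. Right beside it, 59 to 54 bases before the start, lay the reverse complement, ATCAAT, of the Onecut core ATTGAT. The downstream Hnf4a promoter held the homeodomain core TAATTA 165 to 160 bases before the start. Neither the Pdx1 nor the Cdx2 promoter matched any of the motifs, which also included the HNF4 core CAAAGTC and the CDX core TTTATNG. Among 32536 promoters of the same length, AGATAA was present in 9.97%, ATTGAT in 6.60%, TAATTA in 4.84%, CAAAGTC in 3.87% and TTTATNG in 9.74%. A match describes the letters and not a bound site.

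Levels of different genes were compared per length, as RPKM (CPM divided by the length of the merged exons in kilobases). Hnf4a had the highest mean, 179.7 RPKM ± 21.3 (SD, n = 10), above 98.3% of the 18654 genes tested. Hnf4g followed at 121 RPKM ± 31.4, then Cdx2 at 93.0 ± 8.46 and Cdx1 at 64.7 ± 6.10 RPKM. Gata4 averaged 49.7 RPKM ± 4.30 and Gata6 20.7 ± 2.99. Pdx1 at 12.4 RPKM ± 10.3 and Onecut2 at 5.74 ± 1.16 were lowest, although even Onecut2 lay above 68.4% of tested genes. By their means, the HNF4 and CDX factors thus held the top of the order, and Pdx1 and Onecut2 its bottom.

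**Figure D1:**
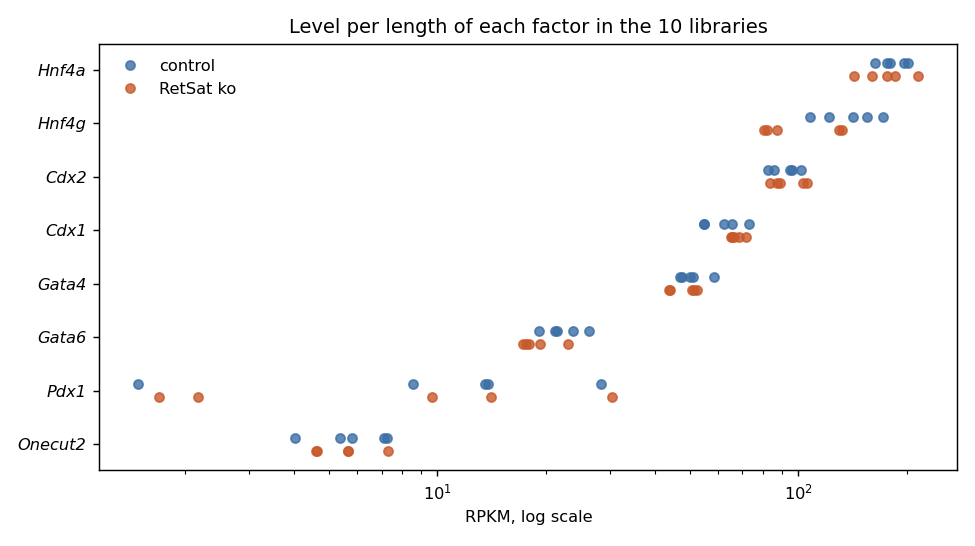
Level of each factor in RPKM (horizontal log axis) in every library, control in blue and RetSat ko in orange, with factors ordered by their mean. Cdx2 and Cdx1 do not overlap, nor do Gata4 and Gata6, while Pdx1 spreads from 1.48 to 30.5 RPKM across Gata6 and Onecut2.

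Neighbours in that order were separated to different degrees. Hnf4a exceeded Hnf4g in 10 of 10 libraries, although the ranges of the genes overlapped between libraries. Cdx2 exceeded Cdx1, and Gata4 exceeded Gata6, in 10 of 10 libraries with no overlap. Cdx1 exceeded Gata4 in 9 libraries, Gata6 exceeded Pdx1 in 8, and Pdx1 exceeded Onecut2 in 7. Hnf4g exceeded Cdx2 in all 5 control libraries but in 2 of the 5 RetSat ko libraries, so these neighbours do not differ beyond their spread in RetSat ko. Onecut2 has 16234 merged exon bases, the most of the 8, so its RPKM is averaged over that whole annotated length.

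Between the genotypes, none of the 8 factors passed the test for a change. All 8 passed the filter on low counts, and 0 of 8 had an adjusted p under 0.05 in edgeR's quasi-likelihood test, which called 0.0322% of all tested genes. DESeq2 also called 0 of 8, against 1.04% of the genes to which it gave an adjusted p. At an unadjusted p under 0.05 there were 2 of 8, Hnf4g and Gata6, both lower in RetSat ko, against 12.2% of all genes. No factor had CPM ranges that were apart between the genotypes, which 2.31% of tested genes did. Of the 8 log2 fold changes, 6 were negative and 2 positive, with a median of -0.079 against 0.020 over all genes. Without RetSat ko 1, edgeR called 4.45% of genes and still 0 of 8. In bulk tissue, fewer cells of a type and less RNA per cell cannot be told apart, and this applies to every difference given here.

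**Figure D2:**
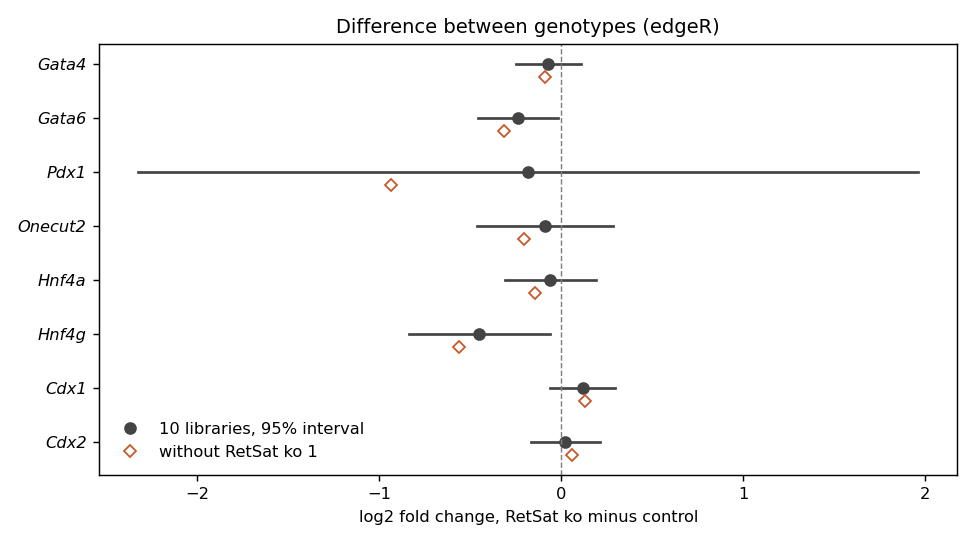
Log2 fold change of each factor, RetSat ko minus control, in edgeR (filled points, horizontal lines the 95% interval, 5 libraries per genotype), with the value without RetSat ko 1 as open diamonds. The intervals of Gata6 and Hnf4g lie below 0, and that of Pdx1 runs from -2.32 to 1.96.

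HNF4A and HNF4G are nuclear receptors that bind the same sites in enterocyte genes. Hnf4a (ENSMUSG00000017950.17) lies on the plus strand of chromosome 2 from 163348728 to 163414830, and Hnf4g (ENSMUSG00000017688.15) on the plus strand of chromosome 3 from 3573090 to 3723112, both in GRCm39. The Hnf4a level was 867, 853, 947, 973 and 787 CPM in controls 1 to 5 and 1040, 689, 774, 893 and 854 CPM in RetSat ko 1 to 5. The highest and the lowest value were both in RetSat ko, and the groups overlapped throughout. Its log2 fold change was -0.059 ± 0.12 (SE, edgeR adjusted p = 0.864).

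Hnf4g stood at 283, 319, 452, 408 and 374 CPM in the controls and at 347.5, 216, 229, 341 and 211 CPM in RetSat ko. RetSat ko 2, 3 and 5 lay below every control, whereas RetSat ko 1 and 4 lay inside the control range. The means were 367 CPM ± 67.6 and 269 ± 69.1 (SD, n = 5), a log2 fold change of -0.45 ± 0.18 (SE, 95% interval -0.83 to -0.063) with an unadjusted p of 0.0264 and an edgeR adjusted p of 0.353. Without RetSat ko 1 the fold change was -0.56 (edgeR adjusted p = 0.0965). The difference therefore did not pass the threshold.

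The balance between the paralogues did not pass its test either. Per length there was 1.14 to 1.67 times as much Hnf4a as Hnf4g in the controls and 1.42 to 2.20 times as much in RetSat ko. On the log2 scale of CPM the Hnf4a to Hnf4g ratio was 1.29 ± 0.23 in controls and 1.68 ± 0.23 in RetSat ko (SD, n = 5). This difference of 0.40 had a two-sided exact permutation p of 0.0397, or 0.159 adjusted over the 4 ratios compared. Measured against 6 epithelial genes of the same library (Epcam, Cdh1, Krt8, Krt18, Krt19 and Cldn7), Hnf4g differed by -0.44 on the log2 scale (exact permutation p = 0.0476, adjusted over the 8 factors 0.190), and Hnf4a by -0.042 (exact permutation p = 0.611, adjusted 0.825).

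GATA4 and GATA6 are zinc finger factors of the same family, with GATA4 known for holding jejunal against ileal character. Gata4 (ENSMUSG00000021944.16) is on the minus strand of chromosome 14, from 63436371 to 63509141. Gata6 (ENSMUSG00000005836.11) is on the plus strand of chromosome 18, from 11052064 to 11085635. Gata4 was 199.8, 186, 195.5, 228 and 184 CPM in the controls and 198, 172, 171.5, 201 and 205 CPM in RetSat ko. Its levels were among the steadiest of the 8, with a coefficient of variation of 8.66% over all libraries and a log2 fold change of -0.070 ± 0.082 (SE, 95% interval -0.25 to 0.11, edgeR adjusted p = 0.756).

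Gata6 was 155, 125, 171, 138 and 139 CPM in the controls and 149, 112, 115, 125 and 117 CPM in RetSat ko. Only RetSat ko 1 was above 125 CPM in its group, and control 2 was as low as RetSat ko 4. The means were 146 CPM ± 17.8 and 124 ± 15.2 (SD, n = 5), and the log2 fold change was -0.24 ± 0.10 (SE, 95% interval -0.46 to -0.018, unadjusted p = 0.0364, edgeR adjusted p = 0.378). Without RetSat ko 1 it was -0.31 with an edgeR adjusted p of 0.0617. The antisense gene 1010001N08Rik shares 93 exon bases with Gata6, 1.43% of the Gata6 exons, and its own counts came to 7.32% of those of Gata6. Any effect of the overlap on the counts is limited to reads from that stretch.

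Set against the 6 epithelial genes of the same library, the Gata6 ranges of the genotypes lay narrowly apart. This value ran from -2.7613 to -2.4551 in the controls and from -2.9375 to -2.7663 in RetSat ko, on the log2 scale, without overlap. Ranges on this measure were apart for 1.81% of all tested genes. The difference of -0.21 had an exact permutation p of 0.00794, the smallest that 5 against 5 libraries can give, and 0.0635 adjusted over the 8 factors. With that floor, 1 factor alone cannot pass the adjusted threshold, so this miss carries no information. Relative to Epcam alone the difference was -0.17 (exact permutation p = 0.0635, adjusted 0.3175). Relative to Cdh1 alone it was -0.083, with an exact permutation p of 0.394 after the same adjustment. The ranges of the genotypes overlapped against either gene alone, so the separation depended on the reference used. The Gata4 to Gata6 ratio was 0.45 ± 0.20 in controls and 0.62 ± 0.15 in RetSat ko on the log2 scale (SD, n = 5, exact permutation p = 0.167).

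CDX1 and CDX2 are caudal-type homeodomain factors. Cdx1 (ENSMUSG00000024619.9) lies on the minus strand of chromosome 18 from 61151934 to 61169271, and Cdx2 (ENSMUSG00000029646.4) on the minus strand of chromosome 5 from 147237615 to 147244080. Cdx1 was 115, 96.0, 109, 96.0 and 128 CPM in the controls and 114, 126, 114, 116 and 119.7 CPM in RetSat ko. The RetSat ko values all fell within the control range and were closer together, with an SD of 4.87 CPM against 13.4 CPM, a difference in spread that was not tested. The Cdx1 log2 fold change was 0.12 ± 0.082 (SE, edgeR adjusted p = 0.580).

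Cdx2 was 215, 229.8, 217, 186.5 and 194 CPM in the controls and 189, 202, 197, 238 and 233 CPM in RetSat ko. Its log2 fold change was 0.024 ± 0.088 (SE, edgeR adjusted p = 0.933), with a 95% interval from -0.17 to 0.21. The ratio of Cdx1 to Cdx2 did not separate the genotypes either, with a log2 difference of 0.10 (exact permutation p = 0.429).

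**Figure D3:**
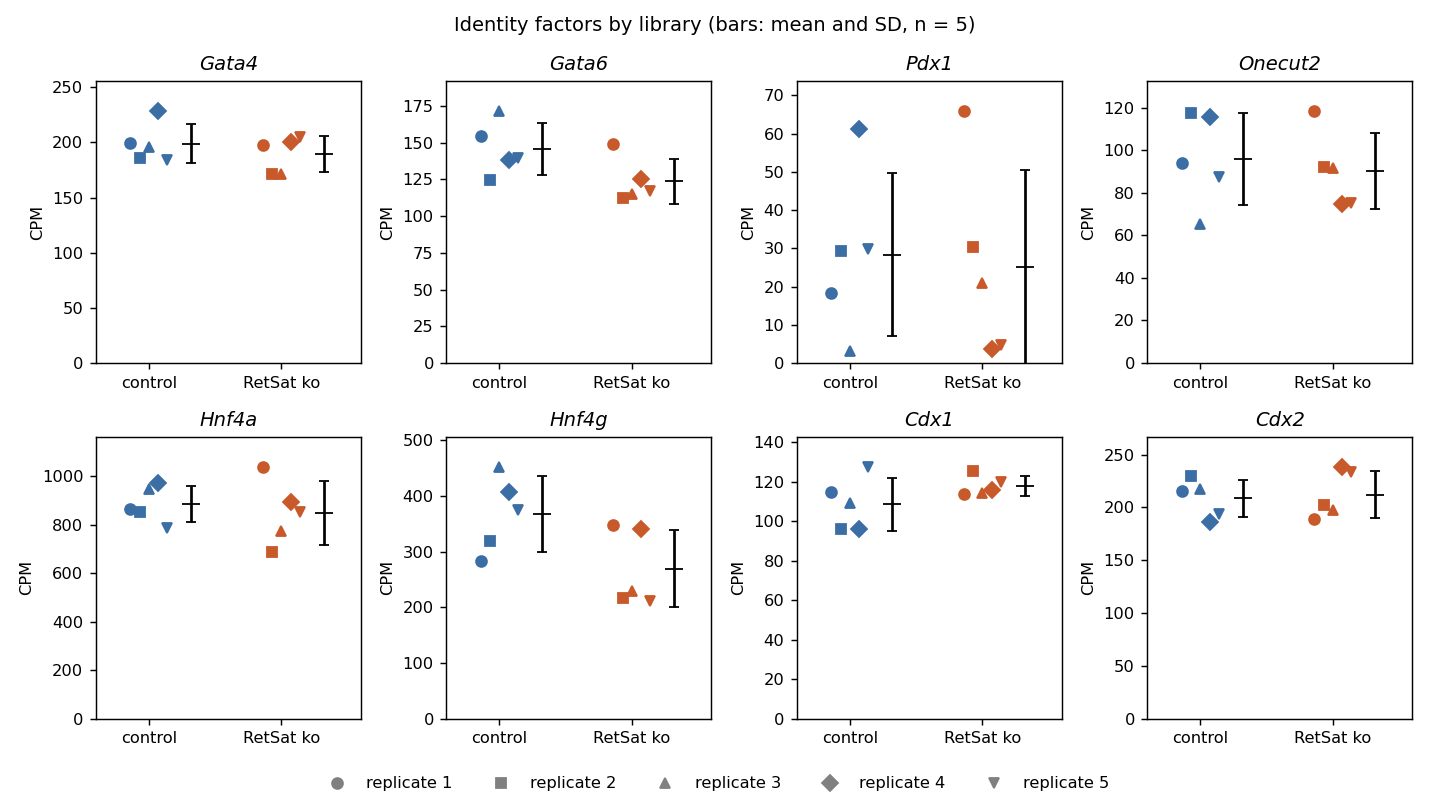
CPM of each factor (vertical axes from 0) in the 5 control (blue) and 5 RetSat ko (orange) libraries, with symbols for the replicate number and black bars for mean and SD. Most RetSat ko libraries have less Hnf4g and Gata6 than most controls, which did not pass the adjusted test, and Pdx1 ranges from 3.20 to 61.3 CPM in control and from 3.66 to 65.8 CPM in RetSat ko.

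PDX1 is a homeodomain factor of duodenum and pancreas. Pdx1 (ENSMUSG00000029644.8) is on the plus strand of chromosome 5 from 147206769 to 147212658, 24956 bases from Cdx2 in the ParaHox cluster. It was 18.4, 29.3, 3.20, 61.3 and 29.7 CPM in the controls and 65.8, 30.3, 20.9, 3.66 and 4.68 CPM in RetSat ko. Control 3, RetSat ko 4 and RetSat ko 5 were low, control 4 and RetSat ko 1 high, and both genotypes covered nearly the whole range. The highest library had 20.6 times the level of the lowest.

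That spread far exceeds counting error and the spread of the other factors. Pdx1 had between 342 and 7099 counts per library, so the counting error at the lowest was 5.41%. Its coefficient of variation over the 10 libraries was 83.0%, larger than that of 98.5% of 13227 genes, for which the median was 12.8%. The other factors ranged from 8.66% in Gata4 to 26.0% in Hnf4g. With this spread, the genotype difference in Pdx1 was -0.18 ± 0.94 on the log2 scale (SE, edgeR adjusted p = 0.955), with a 95% interval from -2.32 to 1.96. Without RetSat ko 1 the difference was -0.93 (edgeR adjusted p = 0.595). The antisense gene Plut overlaps the Pdx1 span but shares 0 exon bases with it in this annotation.

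ONECUT2, the other proximal factor, varied in parallel over a smaller range. Onecut2 (ENSMUSG00000045991.20, chromosome 18 from 64473091 to 64534058, plus strand) was 93.9, 117, 65.4, 116 and 87.4 CPM in the controls and 118, 91.9, 91.5, 74.8 and 75.2 CPM in RetSat ko. The libraries lowest in Pdx1 were also the lowest in Onecut2. Its genotype difference was -0.087 ± 0.17 on the log2 scale (SE, edgeR adjusted p = 0.864), and ran from -0.20 to -0.0050 with 1 library left out. Across the 10 libraries Pdx1 and Onecut2 were correlated (Pearson r = 0.914, permutation p = 0.00101, adjusted over 28 pairs of factors 0.0283). Spearman's rho was 0.806 (permutation p = 0.0078, adjusted 0.109). Without the 2 farthest libraries, control 3 and RetSat ko 1, r was 0.850 in 8 libraries (permutation p adjusted 0.2295). Within genotypes, by centred values, r was 0.913 (permutation p adjusted 0.0608), so the size of r held while the adjusted call did not.

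All 8 factors were then set against markers of position along the gut measured in the same libraries. The position score was the mean log2 CPM of 9 proximal genes, among them lactase (Lct), the iron exporter Slc40a1 and the duodenal reductase Cybrd1, minus that of 8 distal genes, among them the ileal bile acid carrier Slc10a2, cubilin (Cubn) and neurotensin (Nts). No member is in either list. The score was 5.04, 5.41, 4.27, 5.84 and 5.60 in the controls and 6.40, 5.40, 5.13, 4.58 and 4.63 in RetSat ko. RetSat ko 1 had the highest score, and control 3, RetSat ko 4 and RetSat ko 5 had the lowest.

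Pdx1 followed this score, with r = 0.947 (permutation p = 1e-05, the smallest that 100000 permutations can give, adjusted over 32 relations 0.00032) and rho = 0.964 (permutation p adjusted 0.0032). The genes of the score were chosen with earlier results of these data known, so its p-values describe these libraries and are no independent test. With Slc40a1, Cybrd1 and Cubn left out of the score, r for Pdx1 was 0.641 (permutation p adjusted 0.224). Without control 3 and RetSat ko 1, the libraries with the most extreme scores, r was 0.964, and with values centred within genotype it was 0.956. Since 3 libraries lie apart at low Pdx1, the relation was also computed in the 7 libraries above 10 CPM, a choice made after seeing the data, where r was 0.938 (exact permutation p = 0.00159) and rho 0.893 (exact permutation p = 0.0123). Onecut2 had r = 0.879 (permutation p adjusted 0.0120) and rho = 0.818 (permutation p adjusted 0.0469), but r = 0.7925 without the same 2 libraries, which did not pass after adjustment (permutation p adjusted 0.138). Cdx2 went the other way with r = -0.749 (permutation p = 0.0130, adjusted 0.0831) and rho = -0.794, and its r with Pdx1 was -0.777 (permutation p = 0.0096, adjusted over the pairs 0.0839), neither of which passed after adjustment. For the other 5 factors r with the position score lay between -0.14 and 0.175.

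**Figure D4:**
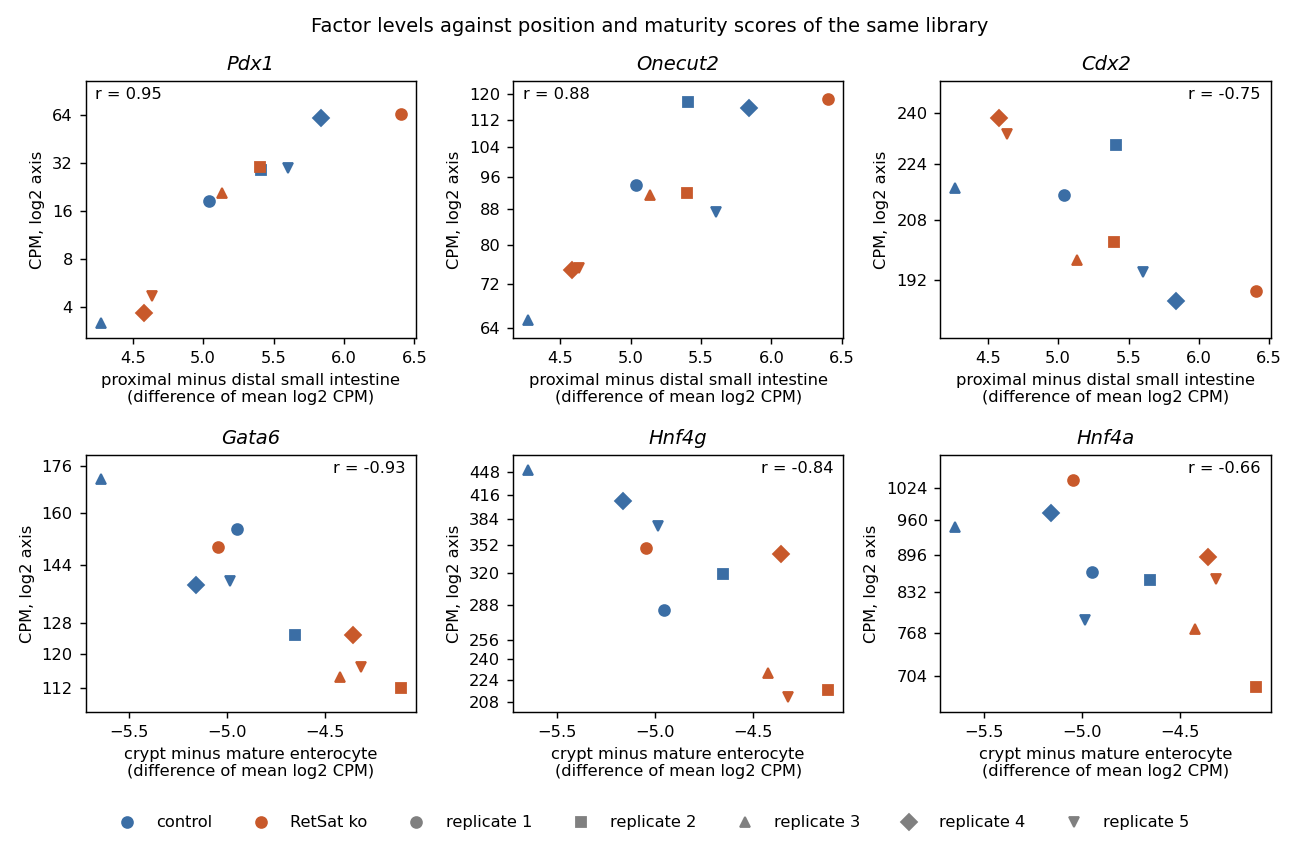
CPM of 6 factors (log2 vertical axes, not from 0) against the position score (upper row) and the crypt minus enterocyte score (lower row) of the same library, control in blue and RetSat ko in orange, symbols giving the replicate number. Pearson r is 0.947 for Pdx1, 0.879 for Onecut2 and -0.749 for Cdx2 in the upper row, and -0.933 for Gata6, -0.8415 for Hnf4g and -0.661 for Hnf4a in the lower row.

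Single genes of the position score are given next to Pdx1. Slc40a1 was 32.8, 65.4, 9.92, 309 and 66.3 CPM in the controls and 278, 107, 54.6, 19.0 and 15.2 CPM in RetSat ko, low and high in the same libraries as Pdx1 (r = 0.951). Cybrd1 was 28.5 CPM in RetSat ko 1 and 7.67 CPM in control 4, the libraries highest in Pdx1, and between 0.823 and 2.76 CPM in the other 8. The distal gene Cubn was highest, 133 CPM, in control 3, where Pdx1 was lowest, and lowest, 2.02 CPM, in RetSat ko 1. Other genes of the score did not share this pattern: Lct was 2724, 1842, 3429, 1501 and 2063 CPM in the controls and 1511, 1376, 1525, 1872 and 1722 CPM in RetSat ko, highest where Pdx1 was lowest (r = -0.556). Of the 9 proximal genes, 6 had a positive r with Pdx1 and 3 a negative one, Lct, Fabp1 and Apoa4, with a range from -0.663 to 0.951. Of the 8 distal genes, 5 had a negative r and 3 a positive one, from -0.872 for Cubn to 0.499 for Pyy. With Slc40a1, Cybrd1 and Cubn left out of the score, a choice made after seeing the data, r was 0.641 for Pdx1, 0.534 for Onecut2 and -0.503 for Cdx2, and none passed (permutation p adjusted 0.224, 0.326 and 0.366). On this reduced score Gata6 had r = 0.473 and Hnf4g 0.348 (permutation p adjusted 0.409 and 0.535), while Gata4, Hnf4a and Cdx1 lay from 0.0024 to 0.196. By rho Pdx1, at 0.5515, no longer stood out. Onecut2 and Gata6 were both at 0.564, Hnf4g at 0.442 and Cdx2 at -0.600, and none passed. Summed over the proximal list, levels were 38400 CPM in control 3 and 20850 CPM, the lowest, in control 4. Fabp6, an ileal gene, had means of 0.147 CPM in controls and 0.207 CPM in RetSat ko.

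**Figure D5:**
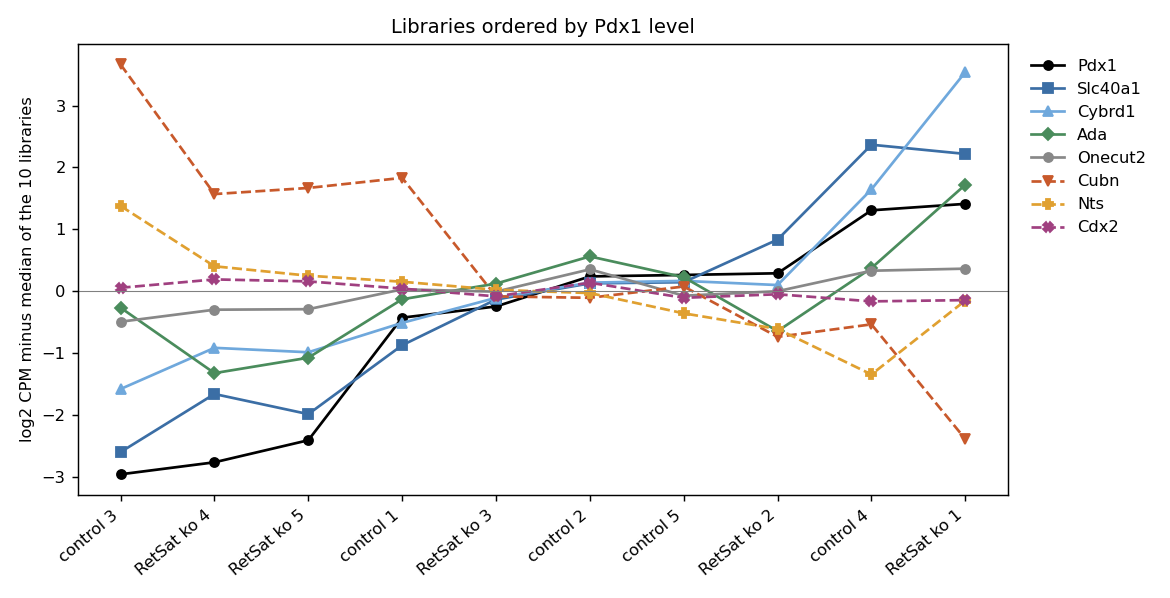
Log2 CPM of each gene minus its median over the 10 libraries (vertical axis), with libraries ordered by their Pdx1 level. Solid lines are Pdx1, Onecut2 and the proximal genes Slc40a1, Cybrd1 and Ada, dashed lines Cdx2 and the distal genes Cubn and Nts. The other genes of the position score, among them Lct, Fabp1 and Pyy, which ran the other way, are not drawn. Control 3 and RetSat ko 4 and 5 are low in Pdx1 and Slc40a1 and high in Cubn, and RetSat ko 1 shows the reverse. Control 1, with 18.44 CPM of Pdx1, is also high in Cubn, at 37.45 CPM.

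Pancreatic markers, whose tissue also expresses Pdx1, were high in some of these libraries. The 4 islet genes summed to 29.2 CPM in RetSat ko 1 and 23.8 CPM in RetSat ko 2, against 0.332 to 1.26 CPM elsewhere. Control 4 had 61.3 CPM of Pdx1 with 1.26 CPM of islet genes and 120.4 CPM of acinar genes. RetSat ko 2, which had 2503 CPM of acinar genes, had 30.3 CPM of Pdx1, close to controls 2 and 5. Those controls had 26.2 and 260.9 CPM of acinar genes, so control 5 was itself among the acinar-rich libraries. Across libraries Pdx1 and the acinar score had r = 0.591 (permutation p adjusted 0.201) and rho = 0.733 (permutation p adjusted 0.108). The pancreatic share of Pdx1 counts in RetSat ko 1 was not tested.

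Gata6 and Hnf4g ran with another score, that of enterocyte maturity, when all libraries were used. The crypt score was the mean log2 CPM of 6 crypt and cell cycle genes (Mki67, Top2a, Cdk1, Rrm2, Olfm4 and Lgr5) minus that of 7 mature enterocyte genes (Alpi, Sis, Treh, Slc6a19, Anpep, Enpep and Mep1b), all detected in every library. It was -4.95, -4.65, -5.65, -5.16 and -4.99 in the controls and -5.05, -4.11, -4.42, -4.36 and -4.32 in RetSat ko. Hence 4 of the 5 RetSat ko libraries lay above all controls, and RetSat ko 1 lay among them. Summed enterocyte markers were 13800 to 20960 CPM in controls and 11250 to 17080 CPM in RetSat ko, and crypt markers 632 to 831 CPM and 660 to 990 CPM.

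Gata6 fell as this score rose, with r = -0.933 (permutation p = 0.00021, adjusted 0.00336) and rho = -0.830 (permutation p adjusted 0.0469). Hnf4g did so with r = -0.8415 (permutation p adjusted 0.0211) and rho = -0.891 (permutation p adjusted 0.0203). Without control 3 and RetSat ko 2 the values were -0.855 and -0.714, and neither passed (permutation p adjusted 0.138 and 0.249). In that setting Pdx1 had r = -0.840 with the crypt score (permutation p adjusted 0.0902), against -0.052 in all libraries. Onecut2 had -0.689 and Cdx2 0.739 (permutation p adjusted 0.303 and 0.2455). The relation with this score was thus not particular to Gata6 and Hnf4g there. Centred within genotype they were -0.894 and -0.721 (permutation p adjusted 0.0537 and 0.115) and did not pass either. Hnf4a had r = -0.661 (permutation p adjusted 0.168). The genes of the crypt score were also chosen with earlier results of these data known, so its p-values are no independent test.

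Because the crypt score and the genotype go together, the fit was repeated with the score as a covariate, a choice made after seeing the data. The genotype difference was then 0.028 for Gata6 (edgeR adjusted p = 0.980) and -0.058 for Hnf4g (edgeR adjusted p = 0.985). As most RetSat ko libraries lie above all controls on this score, the fit cannot tell genotype and maturity apart. With the position score, all its genes included, as covariate they were -0.24 and -0.45, as without it, and that of Pdx1 was -0.34 (edgeR adjusted p = 0.662).

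The genes whose levels ran most like each factor over the 10 libraries, among 12498 named genes of at least 1 CPM, are given as a description. Nearest to Pdx1 were Akp3, an intestinal alkaline phosphatase (r = 0.982), and AC102159.1 (r = 0.973). Akp3 ran from 39.4 CPM in RetSat ko 4 to 3721 CPM in RetSat ko 1. For Onecut2 they were the interferon-induced Isg15 (r = 0.947) and Psd4 (r = 0.946). Gata6 was matched by Scoc (r = 0.986) and Man2b2 (r = 0.985), Hnf4g by the interleukin-22 receptor gene Il22ra1 (r = 0.974) and the autophagy receptor gene Nbr1 (r = 0.969), and Hnf4a by Socs4 (r = 0.955) and Cd2ap (r = 0.941). Cdx2 ran with Gle1 and Sapcd2 (r = 0.980 each), Cdx1 with Nt5m (r = 0.962) and Smim8 (r = 0.946), and Gata4 with Snw1 (r = 0.932) and Zfp229 (r = 0.880).

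Relatives of these factors were mostly silent in jejunum. Of 9 family genes, Gata5 was the one well expressed, at 93.3 CPM ± 9.53 in controls and 82.9 ± 10.5 in RetSat ko (SD, n = 5), with a log2 fold change of -0.17 (edgeR adjusted p = 0.489). Gata2, Gata3 and Onecut3 stayed below 1 CPM on average, and Cdx4 and Gsx1, the latter a ParaHox gene like Pdx1 and Cdx2, had 0 counts in all libraries. Of the 4 relatives tested, 2 were positive, 2 negative and 0 called.

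A wider list of 31 epithelial transcription factors had 16 positive and 15 negative fold changes, a median of 0.011 and 0 calls in edgeR. The smallest p-values belonged to Sox9, a crypt factor, at 0.47 (edgeR adjusted p = 0.291) and Ppara, the fatty acid receptor, at -0.54 (edgeR adjusted p = 0.292). Ascl2, a stem cell factor, stood at 0.45 and Foxa2 at 0.34 (edgeR adjusted p = 0.377 and 0.398). Sox9 was 12.1 CPM ± 1.48 in controls and 16.7 ± 2.34 in RetSat ko, and it was called by DESeq2 (adjusted p = 0.0366) and by edgeR without RetSat ko 1 (adjusted p = 0.0274). That is 1 of 31 in fits that called 1.04% and 4.45% of all genes.

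Known targets of the HNF4 factors gave no call in edgeR. Of 12, 11 were negative and 1 positive, with a median of -0.14 against 0.020 over all genes, and of -0.32 without the 4 acinar-rich libraries, control 4 and 5 and RetSat ko 1 and 2. Apob, the core protein of chylomicrons, had the smallest p at -0.49 (edgeR adjusted p = 0.321) and was called without RetSat ko 1 (-0.64, edgeR adjusted p = 0.0319), 1 of 12 beside 4.45% of all genes. Villin (Vil1), the lipid transfer gene Mttp and the lipid droplet gene Cideb followed at -0.31, -0.40 and -0.22 (edgeR adjusted p = 0.364, 0.416 and 0.422).

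Of 15 genes listed as CDX2 targets, 12 were negative and 3 positive, with a median of -0.31 and 0 calls. The guanylin receptor Gucy2c was at -0.34, sucrase-isomaltase (Sis) at -0.58, Lct at -0.53 and Vil1 at -0.31, with edgeR adjusted p from 0.305 to 0.364. Without RetSat ko 1, edgeR called Gucy2c, Sis and the iron oxidase Heph (-0.40, -0.76 and -0.60, adjusted p = 0.0497, 0.0298 and 0.0216), 3 of 15 where 4.45% of all genes were called. The list overlaps the mature enterocyte markers in Sis and Alpi and the HNF4 list in Vil1, and all 7 mature enterocyte markers were negative, with a median of -0.36. With the crypt minus enterocyte score as covariate, added after seeing the data, the median of the CDX2 targets was 0.072 and that of the HNF4 targets 0.073, both with 0 calls. That score itself contains Sis and Alpi and goes together with genotype, so these medians cannot tell genotype and maturity apart.

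Genes of proximal and distal small intestine did not separate the genotypes. Of 9 proximal genes, 5 were positive and 4 negative, with 0 called and a median of 0.052, or -0.42 without RetSat ko 1. The smallest p-values were those of Lct, then the hormone genes Cck at 0.28 and Sct at 0.17, and Cybrd1 at 1.19 ± 1.06 (SE, edgeR adjusted p = 0.364, 0.589 and 0.678). Cybrd1 turned to -0.75 without RetSat ko 1, which alone held 28.5 CPM. Of 8 distal genes tested, 5 were positive and 3 negative, with 0 called, led by proglucagon (Gcg) at 0.34 (edgeR adjusted p = 0.455), Fabp6 at 0.49, Slc10a2 at -0.32 and Cubn at -1.26 (edgeR adjusted p = 0.564, 0.618 and 0.662).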

How the data were processed

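RNA sequencing counts of 10 jejunum libraries were used, 5 control and 5 RetSat ko by the labelled genotype. Trimmomatic trimmed and STAR aligned the reads (GRCm39), per the submitters' processing notes. The authors' values are raw counts that featureCounts 2.0.1 summed over each gene's exons in GENCODE M28, per the file headers, with no strand, pair or multimapping option, so antisense reads cannot be separated. The merged exon length in the deposited files gave RPKM, and promoter sequences came from RefSeq.

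Counts were filtered with filterByExpr, scaled by TMM and tested in R 4.3.3 by the robust quasi-likelihood method of edgeR 4.0.16, adjusted by Benjamini-Hochberg over 18654 genes at a threshold of 0.05. DESeq2 1.42.0 and limma 3.58.1 were alternatives, and the test was tried on simulated data. CPM are per 1000000 of the TMM-adjusted library size, and log2 CPM used a prior count of 2. Ratios were compared by exact permutation and relations by 100000 permutations. Symbols matched 52081 of 55414 identifiers (94.0%). Counting error is a lower limit where reads of a pair were counted separately.

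Named are all members, the 4 genes of smallest p of each factor, region and target list, the 2 genes most like each member, and genes that overlap a member's exons. Slc40a1, Cubn, Cybrd1, Plut and Heph were also named after their values were seen. The members and lists were chosen with earlier results of these data known. No pair of libraries was a duplicate.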

Additional observations from a re-analysis of the deposited data

How the results depend on the processing

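Across 21 other settings, 0 of the 8 factors were called in any. The number of all genes called was 6, 123 with DESeq2, 12 with limma-voom sample weights and 5 to 846 with 1 library left out, the highest without RetSat ko 1. Other epithelial factors had 1 call with DESeq2 and 0 to 1, HNF4 targets 0 to 1 and CDX2 targets 0 to 3 with 1 library left out. Fold changes turned sign without the 3 B cell-rich libraries, control 4 and RetSat ko 2 and 3 (Gata4 0.064, Pdx1 0.28, Hnf4a 0.098) and with the crypt score as covariate, added after seeing the data (Gata4 0.0022, Gata6 0.028, Pdx1 0.18, Hnf4a 0.16, Cdx2 -0.064, and the medians of the HNF4 and CDX2 targets, 0.073 and 0.072). With 1 library left out, Pdx1 ran from -0.93 to 0.31, Onecut2 from -0.20 to -0.0050, Hnf4a from -0.14 to 0.0072 and Cdx2 from -0.023 to 0.063. The log2 ratio of Pdx1 to Onecut2 ran from -0.88 to 0.090. Relative to epithelial genes, Gata4 ran from -0.077 to 0.012, Pdx1 from -1.07 to 0.098, Onecut2 from -0.19 to 0.055 and Cdx2 from -0.0014 to 0.14. Relative to Epcam alone Gata4 was 0.0003 and Hnf4a 0.0020, and relative to Cdh1 alone Gata4 was 0.083, Onecut2 0.077 and Hnf4a 0.084. None of these values passed the threshold, and the cause of each turn was not tested. For ratios and values relative to epithelial genes with 1 library left out, that miss carries no information. There the smallest possible exact permutation p is 0.0159, so 1 ratio or factor alone cannot pass after adjustment.

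Replicate numbers did not pair the samples: same-numbered libraries had correlations of their deviations from -0.15 to 0.0021. With the number as a replicate block, edgeR called 4 genes in all and 0 of the 8 factors, with Gata6 at -0.24 and Hnf4g at -0.47 (adjusted p = 0.460 and 0.462).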
